A study of Homo sapiens with 63 samples.

Results

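The genes described here are 42 heat shock chaperones of the cytosol and the mitochondria with their closest partners, taken by gene name from the 58336 genes of the study's count table. They comprise 8 genes of the HSP70 and HSP110 families, 3 of the HSP90 family, the 2 mitochondrial chaperonin genes, the small heat shock protein HSPB1, 8 J-domain proteins, 3 BAG proteins, 6 HSP90 co-chaperones, 8 subunits of the cytosolic chaperonin CCT, the collagen chaperone SERPINH1 and the heat shock factors HSF1 and HSF2. Of the 42, 41 had enough counts to be tested. DNAJA4, a J-domain protein, was not: it had no count in 44 of the 63 libraries and at most 10 counts in any.

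The RNA came from HEK293T, a human embryonic kidney cell line in wide use, here made to express Halo, a protein tag that labels itself with a bound ligand. The study compared ibuprofen with ibufenac, which lacks the methyl group next to the carboxylic acid of ibuprofen. Per the series text, the cells were given 10 µM of Ht-Pre-AG-ibuprofen or Ht-Pre-AG-ibufenac for 2 h, Halo-bound precursors from which an acyl glucuronide (AG) of the drug is freed by light. Unbound precursor was washed out and 365 nm light at 5 mW/cm2 was applied for 3 min. The labels name 7 arms: DMSO, ibuprofen bolus, ibufenac bolus, ibuprofen photocaged, ibufenac photocaged, ibuprofen probe and ibufenac probe. Sampling at 6, 12 and 18 h with 3 libraries per arm and hour gives 21 groups of 3. The labels do not say how the photocaged and probe arms differ, which arms were lit, what dose a bolus was, from which event the hours count or whether the libraries of a group came from separate cultures, so p-values measure the spread between these libraries, which may be technical.

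Heat shock chaperones bind unfolded or partly folded proteins and help them reach or regain their native state. HSP70 proteins act with J-domain proteins, which bring substrates and start ATP hydrolysis, and with nucleotide exchange factors such as BAG and HSP110 proteins, which release them. HSP90 finishes the folding of kinases and steroid receptors with its co-chaperones, CCT folds actin and tubulin, and the mitochondrial chaperonin HSPD1 with its lid HSPE1 folds imported proteins. Many of these genes are induced together when heat shock factor 1, encoded by HSF1, binds heat shock elements in their promoters, which are runs of the unit GAA and its reverse complement TTC.

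The promoters show which members carry such a run close to their start, and the stretches are given because they belong to genes the results turn on. RefSeq promoter windows (GRCh38.p14, 250 bases before to 50 bases after an annotated start) were found for 37 of the 42 members, and CCT6A, FKBP4, HSF1, HSPA14 and ST13 had no window. The letters GAANNTTCNNGAA and TTCNNGAANNTTC, which are 13 bases long and can overlap each other, were searched on both strands. They occurred in a window of 8 of the 37 members (21.6%), against 166 of the 27305 genes in the table (0.61%). The 8 members were HSPA8, HSP90AA1, HSP90AB1, HSPD1, CHORDC1, DNAJB6, DNAJA1 and SERPINH1, and the match in DNAJA1 lies 3 to 15 bases downstream of the first transcribed base. A match is a description of letters and not a measured binding site. The stretches, written 5′ to 3′ on the gene's strand, have capitals for the matched letters.
HSPA8, chr11:123062137-123062236, minus strand: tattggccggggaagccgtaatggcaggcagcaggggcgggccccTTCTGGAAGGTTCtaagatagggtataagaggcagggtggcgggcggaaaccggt
HSPA8, chr11:123062346-123062375, minus strand: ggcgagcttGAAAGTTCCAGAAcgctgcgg
CHORDC1, chr11:90223050-90223149, minus strand: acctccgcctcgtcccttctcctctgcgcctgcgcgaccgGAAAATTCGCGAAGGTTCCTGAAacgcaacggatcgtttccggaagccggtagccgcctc
DNAJB6, chr7:157336864-157336893, plus strand: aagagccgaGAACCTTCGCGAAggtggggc
HSPD1, chr2:197500061-197500090, minus strand: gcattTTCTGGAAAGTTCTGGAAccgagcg
HSP90AB1, chr6:44247770-44247799, plus strand: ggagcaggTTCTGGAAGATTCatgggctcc
HSP90AB1, chr6:44247822-44247851, plus strand: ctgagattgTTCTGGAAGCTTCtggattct
SERPINH1, chr11:75562153-75562252, plus strand: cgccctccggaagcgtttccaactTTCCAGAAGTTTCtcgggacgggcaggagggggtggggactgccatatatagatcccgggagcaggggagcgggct
HSP90AA1, chr14:102087045-102087144, minus strand: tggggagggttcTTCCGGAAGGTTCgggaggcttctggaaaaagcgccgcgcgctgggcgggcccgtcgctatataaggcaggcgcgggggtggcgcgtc

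The 2 stress-inducible HSP70 genes were read beside these because their sequences limit what their counts mean. HSPA1A and HSPA1B encode near-identical proteins, and 71.2% of the 75-base words of the HSPA1A transcript also occur in HSPA1B. Neither promoter window held the 13-base letters. Capitals in the 120 bases before each start mark the shorter run GAANNTTC of 8 bases. It or TTCNNGAA occurred in 13.5% of all windows. The counts of this pair are uncertain wherever the authors' counting could split shared reads, and the same holds for HSPD1 and HSPE1, which lie head to head and overlap a read-through gene of HSPE1.
HSPA1A, chr6:31815423-31815542, plus strand: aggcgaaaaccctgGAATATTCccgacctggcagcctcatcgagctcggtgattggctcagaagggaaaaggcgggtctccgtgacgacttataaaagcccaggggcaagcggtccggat
HSPA1B, chr6:31827618-31827737, plus strand: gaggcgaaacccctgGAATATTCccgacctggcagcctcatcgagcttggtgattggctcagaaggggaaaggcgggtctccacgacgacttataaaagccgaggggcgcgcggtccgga

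The libraries held 12139918 to 38377150 counts each, with a median of 19605077, and members took 0.979% to 1.475% of them. The share of counts in protein-coding genes ran from 68.4% to 83.3% and moved with the groups: at 6 h it was 70.7% to 72.1% in the ibufenac probe libraries, 75.7% to 78.2% in DMSO and 75.8% to 80.0% in the ibuprofen probe libraries. Its part in the results was not tested. Of 12 markers of HEK293 cells, 10 reached a median of 1 CPM (counts-per-million, scaled by TMM factors), while ALB was the only one of 8 hepatocyte genes to do so. Several libraries stood apart from their groups. The count differences between ibufenac bolus 6 h replicate 3 and its partners were 48.0 and 57.7 times the sampling noise (chi-square over degrees of freedom), against 7.78 between those partners. For ibufenac bolus 18 h replicate 3 the values were 46.1 and 54.0, against 11.9, and for ibuprofen photocaged 18 h replicate 3 they were 43.8 and 22.9, against 14.0. For ibufenac probe 12 h replicate 3 they were 47.8 and 29.0, against 16.2. Ibufenac photocaged 6 h replicate 1 had 27.2 and 55.4, against 17.9 between its partners. The ibuprofen bolus libraries at 12 h all differed from each other, with values of 51.5, 33.8 and 34.2. DMSO 18 h replicate 3, with 17.7 and 13.6 against 6.85, differed no more than ibufenac photocaged 18 h replicate 1, with 14.7 and 19.7 against 6.04. Earlier results of these data had set apart DMSO 18 h replicate 3 and ibufenac bolus 18 h replicate 3, and these 2 were left out together. All 63 libraries were also left out singly.

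In DMSO, abundance per length (FPKM, the authors' values) spanned a wide range over the members. HSPA8, the constitutive cytosolic HSP70, led with a median of 690.7 FPKM over 9 libraries (493.4 to 789.0). HSP90AB1, the constitutive cytosolic HSP90, followed at 375.7 (307.8 to 433.6), then CCT3 at 350.9 (297.4 to 383.5), HSPD1 at 342.0 (254.0 to 388.1) and HSP90AA1, the inducible HSP90, at 304.0 (249.2 to 328.1). The ranges of these last 4 overlapped. HSPA1B lay at 178.1 FPKM and HSPE1 at 172.5, with overlapping ranges as well. At the low end stood BAG3 at 8.64 FPKM, BAG2 at 3.04 and HSPA1A at 1.38. In counts, the median library held 6609 for HSPA1B and 43 for HSPA1A.

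The DMSO arm itself drifted over time. From 6 to 12 h, 5 of 41 members fell (1.48% of all 19352 tested genes fell) and 1 rose (2.34%), with a median log2 change of −0.13 over the members and −0.01 over all genes. HSPA9, the mitochondrial HSP70, fell by 0.24 on the log2 scale and CCT6A by 0.25, and HSPA4L, an HSP110 relative, rose by 0.30. From 12 to 18 h, 8 fell (3.35%) and 2 rose (1.91%), with a member median of −0.16 against 0.00. HSPA8 fell by 0.23, CHORDC1 by 0.33 and AHSA1 by 0.30, while HSF1 rose by 0.62. Without the 2 libraries left out together, HSF1 still passed (0.72, adjusted p = 0.0318), and HSPA8 (−0.18, adjusted p = 0.176), CHORDC1 (−0.29, adjusted p = 0.0573) and AHSA1 (−0.26, adjusted p = 0.0686) did not. These counts depend on settings: with trends on gene length and GC content removed, 13 fell and none rose in the first interval and 1 fell and 1 rose in the second, and without those 2 libraries 4 members passed in the second. Each treated group was therefore set against DMSO of its own hour.

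Levels are given as CPM, and a log2 change is the fitted difference from DMSO at the same hours, with its 95% interval in brackets. Members are said to have fallen or risen where edgeR's quasi-likelihood test gave an adjusted p under 0.05 over all 19352 tested genes. All 6 arms were set against the same DMSO libraries, so the arms are not independent of one another. In bulk RNA, fewer cells with a transcript and less of it per cell cannot be told apart.

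No chaperone gene passed the test in either bolus arm on average over the 3 times. In the ibuprofen bolus arm 0 of 41 passed edgeR's test (0.0258% of all genes passed), with 5 at an unadjusted p under 0.05 and 0 by DESeq2. In the ibufenac bolus arm 0 passed (0.0103%), with 6 at an unadjusted p under 0.05 and again 0 by DESeq2. The largest changes in the ibuprofen bolus arm were −0.27 [−0.57, 0.02] for HSPA1B and −0.21 [−0.44, 0.01] for HSF1, and HSPE1 stood at 0.08 [−0.03, 0.19]. Taken hour by hour, 0 members passed at 6 h (0%), 12 h (0.0103%) and 18 h (0.0723%) in the ibuprofen bolus arm, with 4, 6 and 3 members at an unadjusted p under 0.05 and 0 by DESeq2. In the ibufenac bolus arm 0 passed at 6 h (0.0258%) and 12 h (0%), with 12 and 3 at an unadjusted p under 0.05 and 0 by DESeq2. There HSPA1B (−0.94, adjusted p = 0.0266) and HSF1 (−0.71, adjusted p = 0.0242) fell at 18 h (2.71% fell). Both calls at 18 h were lost without the 2 libraries left out together, at −0.72 (adjusted p = 0.316) for HSPA1B and −0.61 (adjusted p = 0.274) for HSF1. DESeq2 called 5 members there, 2 lower and 3 higher, and fits that each left out 1 library called 0 to 4, with 0 without ibufenac bolus 18 h replicate 3 or DMSO 18 h replicate 1 or 2.

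Some members fell in the photocaged arms and more of them in the probe arms. Averaged over 6, 12 and 18 h, 7 of 41 members fell in the ibuprofen photocaged arm (2.3% of all tested genes fell) and none rose. In the ibufenac photocaged arm 6 fell (3.36%) and SERPINH1 rose (4.13% of genes rose), or 5 and 2 with RLE size factors. In the probe arms 21 fell with ibuprofen (4.61%) and 22 with ibufenac (7.31%), and none rose in either. With length and GC trends removed, 15 and 11 fell in the ibuprofen and ibufenac photocaged arms and 22 and 23 in the probe arms. The median change of the 41 was −0.08 and −0.03 in the photocaged arms and −0.14 in each probe arm, while the median over all genes lay between −0.01 and 0.00 in all 4. Of the genes whose promoter windows held the 13-base letters, HSPA8, HSP90AB1, HSPD1, CHORDC1, DNAJB6 and DNAJA1 fell in each probe arm, and HSP90AA1 and SERPINH1 did not. In all, 17 members fell in both probe arms. They included AHSA1, CCT3, DNAJB1, HSPA1A, HSPA1B, HSPE1, HSPH1, STIP1 and TCP1, whose windows did not hold these letters. Whether the letters go with the fall was not tested. DNAJB6 no longer passed with length and GC trends removed in the ibuprofen probe arm (−0.10, adjusted p = 0.14), and SERPINH1 then passed as higher with the ibufenac probe (0.17, adjusted p = 0.019). DNAJB2, whose windows did not hold the letters, then passed as higher with the ibufenac probe too (0.22, adjusted p = 0.0136).

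The weaker of these averaged calls rested on single libraries. Without at least 1 library the call was lost for HSPE1 and CHORDC1 with photocaged ibuprofen and for HSP90AB1 and CHORDC1 with photocaged ibufenac. The same held for HSPD1, HSPH1, HSPA1A, AHSA1, CDC37, TRAP1, DNAJA3 and CCT3 with the ibuprofen probe and for HSPA4, CCT4, CCT5 and CCT8 with the ibufenac probe.

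**Figure D1:**
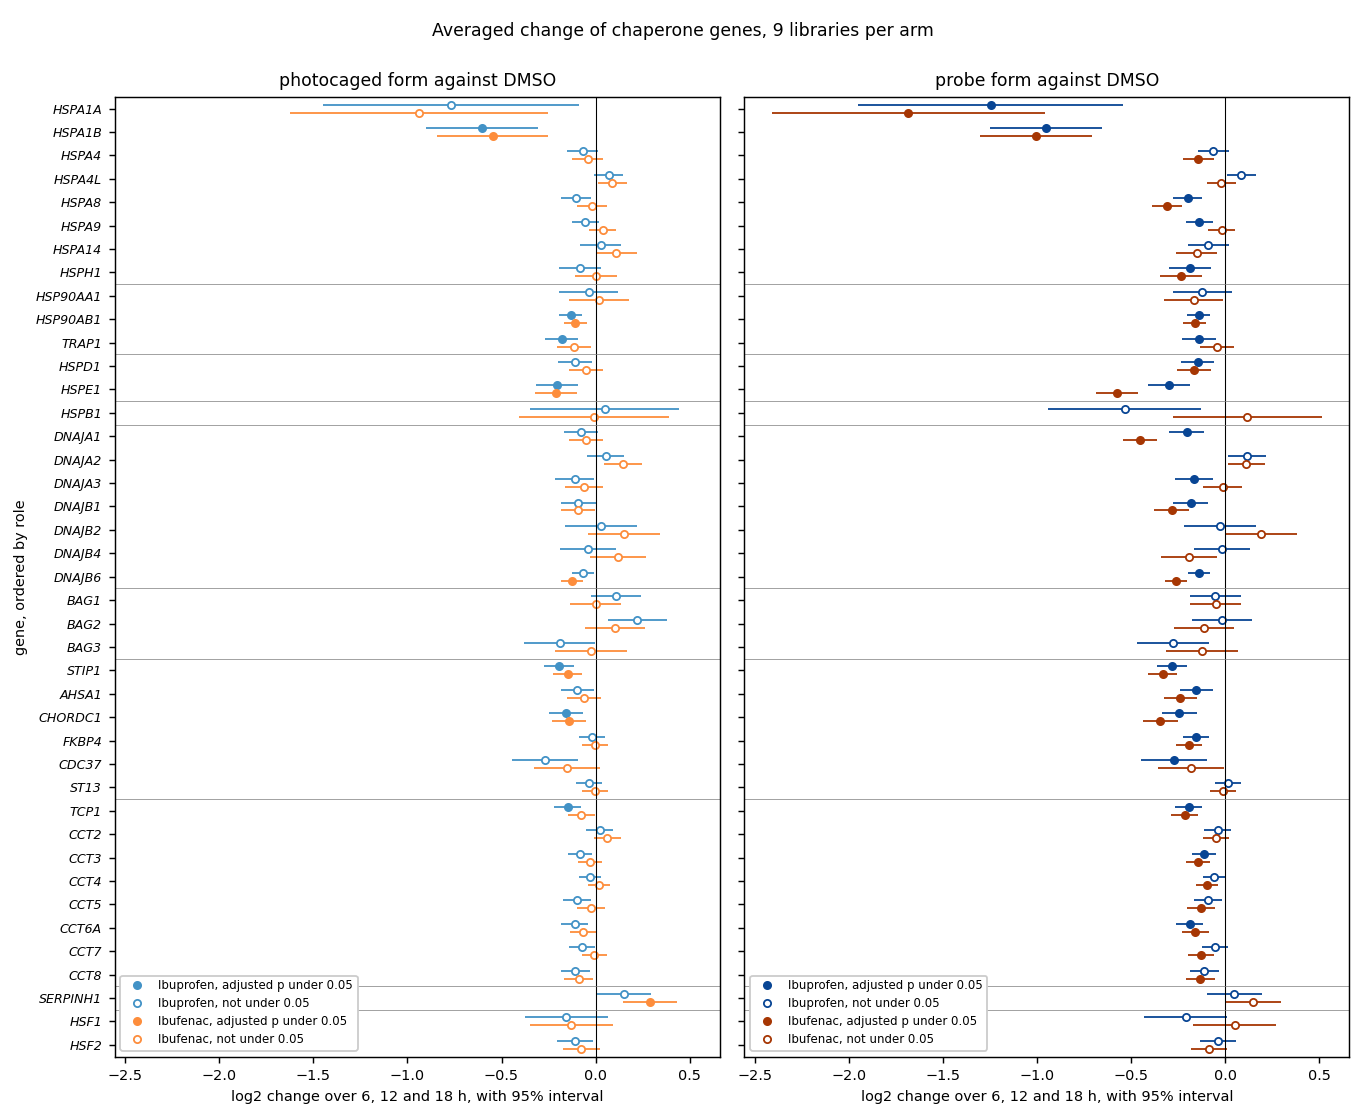
Log2 change of the 41 tested chaperone genes against DMSO, averaged over 6, 12 and 18 h, in the photocaged arms and the probe arms, with ibuprofen and ibufenac side by side; points are fitted changes, bars are 95% intervals and filled points have an edgeR adjusted p under 0.05. Most points lie at or left of 0, with HSPA1A and HSPA1B farthest left and the CCT subunits between −0.04 and −0.22 in the probe arms.

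HSPA1A and HSPA1B, the heat-inducible HSP70 genes, had the largest averaged changes of the 41 members in each probe arm. HSPA1B read 403, 562 and 660 CPM in the 3 DMSO libraries at 6 h, 159, 141 and 187 in the ibuprofen probe libraries and 170, 199 and 269 in the ibufenac probe libraries. Every probe library lay below every DMSO library. The fitted change at 6 h was −1.74 [−2.27, −1.21] with the ibuprofen probe (adjusted p = 2.63e-05) and −1.35 [−1.87, −0.83] with the ibufenac probe (adjusted p = 0.000179).

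At 12 h the 2 drugs parted on HSPA1B. DMSO libraries read 440, 334 and 341 CPM and ibuprofen probe libraries 383, 385 and 327, which overlap. The ibufenac probe libraries read 160, 130 and 224 CPM, all below DMSO, a change of −1.12 [−1.63, −0.60] (adjusted p = 0.00508). The drug difference at 12 h was −1.09 [−1.61, −0.57] (adjusted p = 0.0163), and it was lost when any 1 of ibuprofen probe 12 h replicates 1 and 2 or ibufenac probe 12 h replicates 1 and 2 was left out.

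By 18 h, HSPA1B was low in several arms. DMSO libraries read 557, 578 and 470 CPM, ibuprofen photocaged libraries 257, 270 and 156, ibufenac photocaged libraries 204, 307 and 329, and ibuprofen probe libraries 206, 240 and 303. None of these 9 treated libraries reached the lowest DMSO library. The changes were −1.23 (adjusted p = 0.00694), −0.94 (adjusted p = 0.0318) and −1.10 (adjusted p = 0.0168) in that order, and without the 2 libraries left out together they were −1.32 (adjusted p = 0.00726), −1.02 (adjusted p = 0.0298) and −1.19 (adjusted p = 0.00998). The first call was lost without ibuprofen photocaged 18 h replicate 3, the second without replicate 1 or 2 of either group, and the third without ibuprofen probe 18 h replicate 1 or 2. The ibufenac probe libraries read 477, 287 and 330 CPM, of which 1 overlapped DMSO.

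Averaged over times, HSPA1B changed by −0.60 [−0.90, −0.31] and −0.55 [−0.84, −0.25] in the ibuprofen and ibufenac photocaged arms (adjusted p = 0.00998 and 0.0126) and by −0.96 [−1.25, −0.66] and −1.01 [−1.30, −0.71] in the probe arms (adjusted p = 2.03e-05 and 1.44e-06). The photocaged calls rested on 18 h: with 6 and 12 h only, the changes were −0.30 (adjusted p = 0.397) and −0.36 (adjusted p = 0.203). HSPA1A, at 0.247 to 6.55 CPM in the DMSO and probe libraries at 6 h, changed by −1.25 [−1.95, −0.54] and −1.69 [−2.41, −0.96] in the probe arms. Its call in the ibuprofen probe arm was lost without DMSO 6 h replicate 3, without DMSO 12 h replicate 1 and with 6 and 12 h only (−1.24, adjusted p = 0.108). With the counts of HSPA1A and HSPA1B summed, the probe changes were −0.96 (adjusted p = 2.11e-05) and −1.01 (adjusted p = 1.43e-06).

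**Figure D2:**
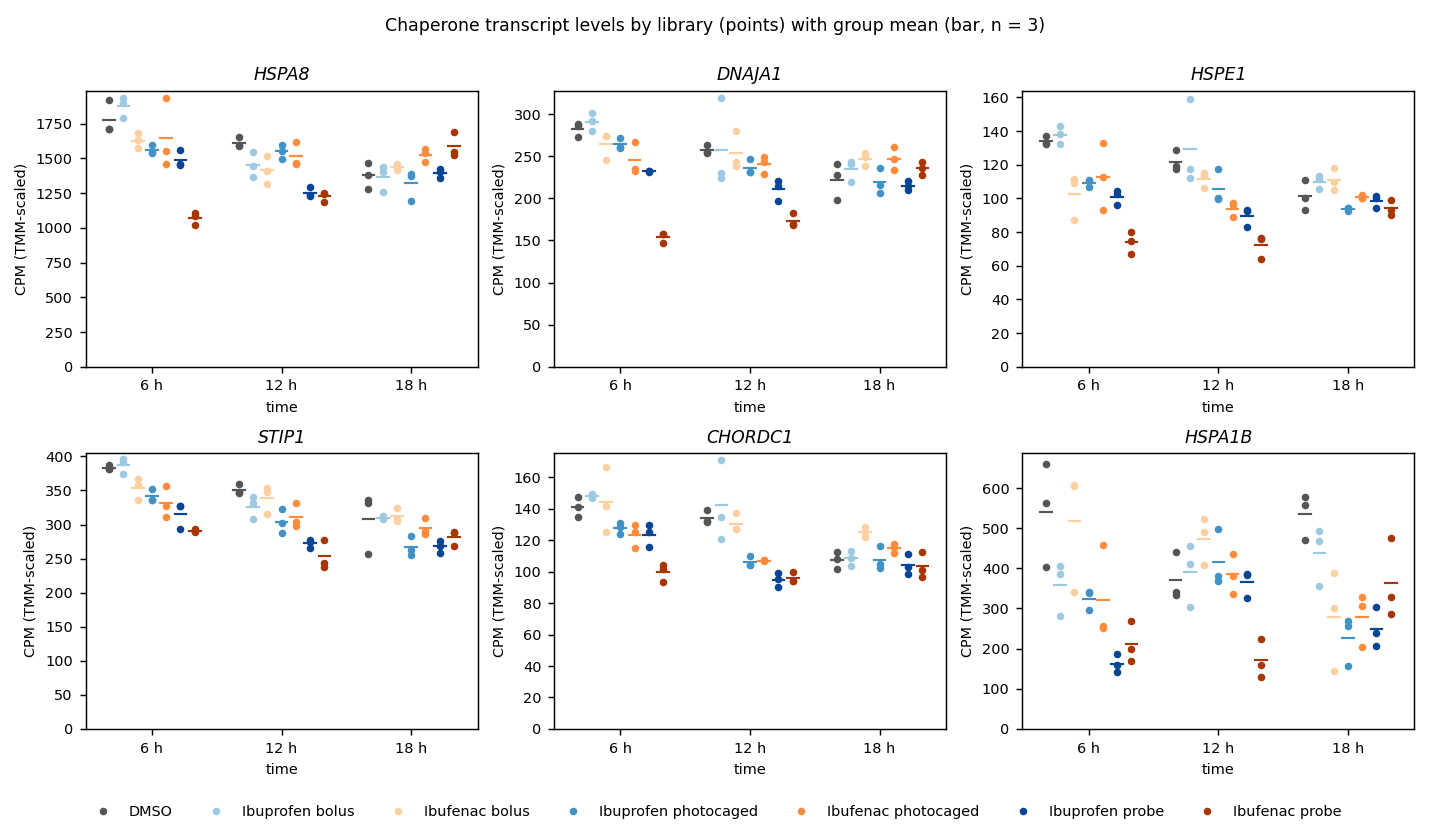
CPM (scaled by TMM factors) of HSPA8, DNAJA1, HSPE1, STIP1, CHORDC1 and HSPA1B in every library, by arm (7) and hour (6, 12 and 18 h); points are libraries and bars are means of 3. The ibufenac probe means sit lowest at 6 h for HSPA8, DNAJA1, HSPE1, STIP1 and CHORDC1, and those of HSPA8 and DNAJA1 are level with or above DMSO at 18 h.

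HSPA8, which serves general folding and the uncoating of clathrin vesicles, fell in both probe arms. At 6 h it read 1918, 1708 and 1709 CPM in DMSO, 1556, 1458 and 1449 in the ibuprofen probe libraries and 1105, 1023 and 1083 in the ibufenac probe libraries. The 3 groups did not overlap at that hour. The change was −0.26 [−0.39, −0.12] (adjusted p = 0.011) and −0.73 [−0.87, −0.59] (adjusted p = 2.09e-11) in that order. Averaged over the hours it was −0.20 [−0.28, −0.12] and −0.31 [−0.39, −0.23] (adjusted p = 0.000613 and 6.1e-08), against −0.10 [−0.18, −0.02] and −0.02 [−0.10, 0.06] in the photocaged arms, where it did not pass. With length and GC trends removed, HSPA8 passed with photocaged ibuprofen (−0.16, adjusted p = 0.00403) and not with photocaged ibufenac (−0.08, adjusted p = 0.162).

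HSPH1, the cytosolic HSP110 that exchanges nucleotide on HSP70, changed by −0.19 [−0.30, −0.07] in the ibuprofen probe arm (adjusted p = 0.0269) and −0.24 [−0.35, −0.12] in the ibufenac probe arm (adjusted p = 0.00195). At 6 h its ibufenac probe libraries read 145, 138 and 155 CPM, below the 193 to 201 of DMSO. HSPA4, another HSP110, fell in the ibufenac probe arm alone by this test (−0.14, adjusted p = 0.0125, against −0.06 in the ibuprofen probe arm), but the difference between the drugs was −0.08 [−0.16, 0.00] and did not pass. HSPA9 fell in the ibuprofen probe arm, with −0.14 [−0.21, −0.07] for the ibuprofen probe (adjusted p = 0.00939) and −0.02 [−0.09, 0.05] for ibufenac, and there too the drug difference did not pass (0.12 [0.05, 0.19], adjusted p = 0.0534). HSPA4L and HSPA14 did not pass in either probe arm on average, at 0.08 and −0.09 with ibuprofen and −0.02 and −0.15 with ibufenac. In all, 5 of the 8 HSP70 and HSP110 genes fell in each probe arm.

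The constitutive HSP90 gene HSP90AB1 fell in all 4 photocaged and probe arms by small amounts, −0.13 and −0.11 in the photocaged arms (adjusted p = 0.00555 and 0.0182) and −0.14 and −0.16 in the probe arms (adjusted p = 0.00173 and 0.000108). At 12 h DMSO libraries read 893, 908 and 978 CPM, ibuprofen probe libraries 791, 761 and 772 and ibufenac probe libraries 800, 808 and 779. Neither probe group overlapped DMSO at that hour. Its ibufenac photocaged call was lost without the filter on low counts (adjusted p = 0.15). The inducible HSP90AA1 did not pass in any of the 4 arms. It changed by −0.12 [−0.28, 0.04] and −0.17 [−0.33, −0.01] in the probe arms (adjusted p = 0.371 and 0.159). Outside those arms single libraries stood apart, such as ibuprofen bolus 12 h replicate 2 with 1711 CPM beside 813 and 1090 in its partners.

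Among the partners that hand clients to HSP90, STIP1 and CHORDC1 fell in all 4 arms. STIP1 (HOP) bridges HSP70 and HSP90, and CHORDC1 is a CHORD-domain protein that binds HSP90. STIP1 read 388, 381 and 381 CPM in DMSO at 6 h, 327, 293 and 327 with the ibuprofen probe and 294, 291 and 289 with the ibufenac probe. Both probe groups lay below DMSO and overlapped each other by 1 library. Its averaged changes were −0.19 and −0.15 in the photocaged arms (adjusted p = 0.00116 and 0.00887) and −0.28 [−0.36, −0.21] and −0.33 [−0.41, −0.26] in the probe arms (adjusted p = 1.91e-06 and 4.95e-09). CHORDC1 changed by −0.16 and −0.14 in the photocaged arms (adjusted p = 0.0341 and 0.0456) and by −0.25 [−0.34, −0.15] and −0.35 [−0.44, −0.25] in the probe arms (adjusted p = 0.000335 and 1.4e-07). The photocaged calls of CHORDC1 were weak, since 52 and 32 of 63 fits that each left out 1 library kept them.

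At 12 h CHORDC1 read 131, 132 and 139 CPM in DMSO, 95.2, 99.3 and 90.1 in the ibuprofen probe libraries and 99.6, 93.9 and 93.9 in the ibufenac probe libraries. Both probe groups lay well below DMSO, with changes of −0.50 [−0.66, −0.34] (adjusted p = 0.000152) and −0.49 [−0.65, −0.33] (adjusted p = 3.92e-05). FKBP4, an immunophilin of the steroid receptor complex, fell by 0.16 and 0.19 in the probe arms (adjusted p = 0.00198 and 3.08e-05), and AHSA1, which stimulates the ATPase of HSP90, by 0.15 and 0.24 (adjusted p = 0.0206 and 7.11e-05). CDC37, which loads kinases, fell in the ibuprofen probe arm (−0.27, adjusted p = 0.0391), a call lost with length and GC trends removed (−0.17, adjusted p = 0.0979). ST13, which binds HSP70, stayed within 0.02 [−0.05, 0.08] and −0.01 [−0.08, 0.06] of DMSO. In all, 5 of 6 co-chaperones fell in the ibuprofen probe arm and 4 of 6 in the ibufenac probe arm.

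The mitochondrial chaperonin HSPD1 and its lid HSPE1 both fell in both probe arms. HSPE1 read 137, 133 and 133 CPM in DMSO at 6 h, 104, 96.3 and 102 with the ibuprofen probe and 80.3, 67.2 and 74.5 with the ibufenac probe. The groups did not overlap, and the changes were −0.41 [−0.60, −0.22] (adjusted p = 0.00448) and −0.86 [−1.05, −0.67] (adjusted p = 4e-09). At 12 h the ibufenac probe libraries still read 63.9, 76.7 and 75.7 CPM against 120, 129 and 117 in DMSO. Averaged over the hours, HSPE1 changed by −0.21 in each photocaged arm (adjusted p = 0.0211 and 0.00973), by −0.30 [−0.41, −0.19] in the ibuprofen probe arm and by −0.57 [−0.69, −0.46] in the ibufenac probe arm (adjusted p = 0.000298 and 3.88e-11).

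HSPD1 changed by −0.15 [−0.24, −0.06] and −0.17 [−0.26, −0.08] in the probe arms (adjusted p = 0.028 and 0.00642) and by −0.11 and −0.05 in the photocaged arms, where it did not pass. With length and GC trends removed, it passed in both photocaged arms (−0.17 and −0.12, adjusted p = 0.00494 and 0.0461). At 12 h it read 755, 745 and 810 CPM in DMSO and 597, 677 and 612 in the ibufenac probe libraries, which lay below. TRAP1, the mitochondrial HSP90, fell in the ibuprofen photocaged arm (−0.18 [−0.27, −0.09], adjusted p = 0.011) and in the ibuprofen probe arm (−0.14, adjusted p = 0.0411). Both calls rested on 18 h, where DMSO read 187, 199 and 214 CPM, ibuprofen photocaged 160, 157 and 131 and ibuprofen probe 155, 175 and 159, and with 6 and 12 h only the changes were −0.07 (adjusted p = 0.581) and −0.06 (adjusted p = 0.585). The ibuprofen probe call was also lost without the 2 libraries left out together (−0.12, adjusted p = 0.0561). It was lost with length and GC trends removed as well (−0.10, adjusted p = 0.084). DNAJA3, the mitochondrial J-domain protein, fell in the ibuprofen probe arm (−0.17, adjusted p = 0.0314) and stood at −0.01 [−0.12, 0.09] in the ibufenac probe arm. The averaged difference between the drugs in the probe form passed for neither TRAP1 nor DNAJA3.

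DNAJA1, a farnesylated J-domain partner of HSPA8, fell in both probe arms. It read 288, 273 and 286 CPM in DMSO at 6 h, 233, 233 and 231 with the ibuprofen probe and 158, 157 and 147 with the ibufenac probe. The 3 groups did not overlap. Its changes at 6 h were −0.28 [−0.44, −0.12] (adjusted p = 0.0152) and −0.88 [−1.04, −0.72] (adjusted p = 8.25e-12). Averaged, they were −0.21 [−0.30, −0.11] and −0.45 [−0.55, −0.36] (adjusted p = 0.00229 and 1.14e-10), against −0.08 and −0.05 in the photocaged arms, where DNAJA1 did not pass.

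DNAJB1 (HSP40), the heat-inducible J-domain protein, followed at a lower level. At 6 h it read 111, 110 and 102 CPM in DMSO, 77.3, 84.9 and 81.4 with the ibuprofen probe and 62.0, 60.2 and 71.9 with the ibufenac probe, changes of −0.40 [−0.56, −0.24] (adjusted p = 0.00101) and −0.73 [−0.89, −0.57] (adjusted p = 2.03e-09). All 6 probe libraries lay below DMSO. DNAJB6, which keeps aggregation-prone proteins soluble, changed little but with a narrow spread. It changed by −0.13 in the ibufenac photocaged arm (adjusted p = 0.00301) and by −0.14 [−0.20, −0.08] and −0.26 [−0.32, −0.20] in the probe arms (adjusted p = 0.00159 and 2.35e-09). The first 2 calls were lost with length and GC trends removed, at −0.10 each (adjusted p = 0.12 and 0.14), as they were without the filter on low counts (adjusted p = 0.154 and 0.0818). In all, 4 of 7 tested J-domain genes fell in the ibuprofen probe arm and 3 in the ibufenac probe arm, and DNAJA2 (0.11 in each), DNAJB2 (−0.03 and 0.19) and DNAJB4 (−0.02 and −0.19) passed in neither. With length and GC trends removed, DNAJB2 passed as higher in the ibufenac probe arm (0.22, adjusted p = 0.0136).

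None of the 3 BAG genes passed in any arm on average. BAG1 stood at −0.05 in each probe arm and BAG2 at −0.02 and −0.11. BAG3, a stress-inducible partner of HSP70 in selective autophagy, changed by −0.28 [−0.47, −0.09] in the ibuprofen probe arm (adjusted p = 0.055) and −0.12 [−0.32, 0.07] in the ibufenac probe arm. HSPB1 (HSP27), a small heat shock protein that holds unfolded proteins, stood at −0.54 [−0.94, −0.13] (adjusted p = 0.0883) and 0.12 [−0.28, 0.51]. At 6 h HSPB1 read 8.02, 12.9 and 11.6 CPM in DMSO and 4.65, 2.18 and 6.30 with the ibuprofen probe, all below DMSO, a change of −1.34 [−2.08, −0.60] (adjusted p = 0.0136). That call was lost with length and GC trends removed (−0.77, adjusted p = 0.0516) and without DMSO 6 h replicate 2 or 3 or ibuprofen probe 6 h replicate 2.

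The subunits of the cytosolic chaperonin lay between −0.04 (CCT2) and −0.20 (TCP1) with the ibuprofen probe and between −0.05 and −0.22, for the same 2, with the ibufenac probe. Of the 8, 3 fell in the ibuprofen probe arm (TCP1, CCT3 and CCT6A, median −0.10 over the 8) and 7 in the ibufenac probe arm (all but CCT2, median −0.13). TCP1, the alpha subunit, read 462, 477 and 488 CPM in DMSO at 12 h, 417, 371 and 373 with the ibuprofen probe and 372, 377 and 374 with the ibufenac probe, below DMSO in all 6 libraries. Its averaged change was −0.20 [−0.27, −0.12] and −0.22 [−0.29, −0.14] (adjusted p = 0.000267 and 1.24e-05). The other called subunits changed by −0.10 (CCT4, ibufenac) to −0.19 (CCT6A, ibuprofen). CCT2 stood at −0.04 [−0.11, 0.03] and −0.05 [−0.12, 0.02]. The calls of CCT4, CCT5 and CCT8 in the ibufenac probe arm were lost without the filter on low counts (adjusted p = 0.235, 0.0531 and 0.0521). With length and GC trends removed, CCT4, CCT5 and CCT8 also passed in the ibuprofen probe arm. Their changes there were −0.13, −0.16 and −0.18 (adjusted p = 0.0116, 0.00337 and 0.000921). No subunit passed in the averaged comparison of the drugs in the probe form. In the photocaged arms 1 subunit fell, TCP1 with ibuprofen (−0.15, adjusted p = 0.0082). With length and GC trends removed, CCT3, CCT5, CCT6A and CCT8 fell there too (adjusted p = 0.0499, 0.00537, 0.000761 and 0.00386). TCP1, CCT6A and CCT8 then fell with photocaged ibufenac (adjusted p = 0.00673, 0.00738 and 0.00338).

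SERPINH1 (HSP47), a chaperone of procollagen in the endoplasmic reticulum, was the 1 member that rose on average over the hours. Over 9 libraries it read 42.2 to 68.4 CPM in DMSO. The ibufenac photocaged libraries read 65.5, 67.6 and 76.1 CPM at 6 h, 78.1, 70.4 and 72.8 at 12 h and 63.8, 73.5 and 73.4 at 18 h, each at or above the highest DMSO library of its hour. The averaged change was 0.29 [0.14, 0.43] (adjusted p = 0.00632), and with 6 and 12 h only it was 0.25 (adjusted p = 0.0867). In the other arms it was 0.15 [0.01, 0.30] with photocaged ibuprofen, 0.05 with the ibuprofen probe and 0.15 with the ibufenac probe, none of which passed. At 18 h it rose with the ibufenac probe (0.43, adjusted p = 0.0481), a call lost without the 2 libraries left out together (0.27, adjusted p = 0.303).

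The transcripts of the heat shock factors themselves did not pass on average in any arm. HSF1, the main activator of the heat shock response, changed by −0.21 [−0.43, 0.01] in the ibuprofen probe arm and 0.05 [−0.17, 0.27] in the ibufenac probe arm, and its values at single hours differed in sign. At 6 h it read 34.3, 54.0 and 48.4 CPM in DMSO, 25.6, 26.8 and 33.8 with the ibuprofen probe (−0.67, adjusted p = 0.0184) and 57.3, 64.5 and 65.5 with the ibufenac probe (0.45, adjusted p = 0.113). With length and GC trends removed, the first of these was −0.03 (adjusted p = 0.902) and the second 0.23 (adjusted p = 0.0379), which then passed. HSF2, a related factor, changed by −0.04 [−0.13, 0.06] and −0.09 [−0.18, 0.01] in the probe arms. With length and GC trends removed, HSF2 passed as lower in the ibuprofen and ibufenac photocaged arms (−0.17 and −0.14, adjusted p = 0.0129 and 0.0334). It did not pass in the probe arms then (adjusted p = 0.136 and 0.141).

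The hours differed in how many members moved. With the ibuprofen probe 13 of 41 fell at 6 h (7.82% of all genes fell), 14 at 12 h (1.61%) and 2 at 18 h (0.76%), and none rose. With the ibufenac probe 16 fell at 6 h (8.11%) and DNAJA3 rose (4.63% of genes rose), 22 fell at 12 h (2.67%), and at 18 h 1 fell (0.889%) and 1 rose (1.8%). The 2 that fell at 18 h with the ibuprofen probe were HSPA1B and TRAP1, and TRAP1 (−0.30, adjusted p = 0.0333) was at −0.25 (adjusted p = 0.0752) without the 2 libraries left out together. The 1 that fell with the ibufenac probe was DNAJB6 (−0.21, adjusted p = 0.0164), at −0.24 (adjusted p = 0.0176) without them. In both arms the gap between the members' share and that of all genes was widest at 12 h and narrowest at 18 h. The ibuprofen probe counts moved with single libraries: at 6 h they were 7 and 6 without DMSO 6 h replicates 2 and 3, and 7 and 4 without ibuprofen probe 6 h replicates 1 and 2. At 12 h they were 9 and 8 without DMSO 12 h replicates 2 and 3, and 6 and 7 without ibuprofen probe 12 h replicates 2 and 3. Left-out libraries gave 12 to 18 at 6 h and 15 to 23 at 12 h for the ibufenac probe. With length and GC trends removed, fewer members fell at 6 h with the ibufenac probe. Those were HSPA1A, HSPA1B, HSPA8, HSPH1, HSPE1, DNAJA1, DNAJB1, DNAJB6, STIP1, CHORDC1 and FKBP4, and HSF1 then rose beside DNAJA3.

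**Figure D3:**
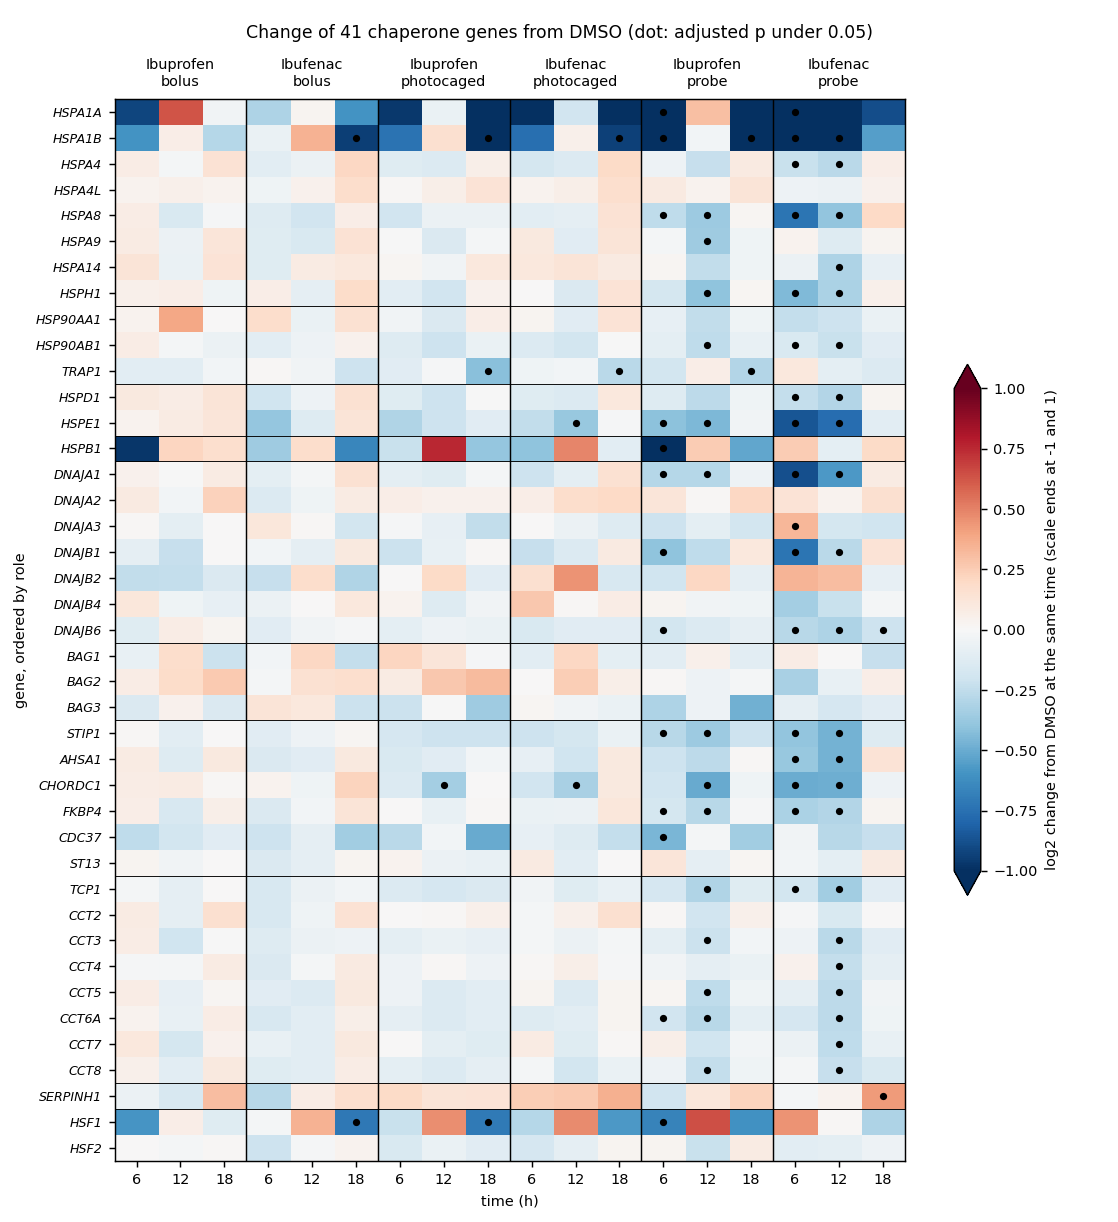
Log2 change of the 41 tested members (rows, grouped by role) against DMSO at 6, 12 and 18 h in each of the 6 treated arms (columns); the colour scale ends at −1 and 1 and dots mark an edgeR adjusted p under 0.05. Dots gather in the probe arms at 6 and 12 h and are sparse in the bolus arms and at 18 h.

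In the photocaged arms fewer members passed at a single hour, with 3 libraries per group, than on average, with 9 per arm. The member medians at 6, 12 and 18 h were −0.099, −0.066 and −0.065 with ibuprofen, against −0.083 on average. With ibufenac they were −0.047, −0.100 and 0.025, against −0.031. At 6 h 0 members passed with ibuprofen (0.992% of genes passed) and 0 with ibufenac (3.03%) by edgeR and by DESeq2, with 7 and 12 at an unadjusted p under 0.05. At 12 h CHORDC1 fell in both (−0.34, adjusted p = 0.0249, with 0.579% of genes lower, and −0.33, adjusted p = 0.0184, with 1.11%), and HSPE1 fell with ibufenac (−0.38, adjusted p = 0.0264). At 18 h HSPA1B, TRAP1 (−0.42, adjusted p = 0.0016) and HSF1 (−0.71, adjusted p = 0.0365) fell with photocaged ibuprofen (1.22%), and HSPA1B and TRAP1 (−0.27, adjusted p = 0.0393) with photocaged ibufenac (1.19%). Without the 2 libraries left out together, TRAP1 changed by −0.37 (adjusted p = 0.0114) and HSF1 by −0.80 (adjusted p = 0.0243) in the ibuprofen arm, and TRAP1 stood at −0.22 in the ibufenac arm (adjusted p = 0.117). The count of 3 in the ibuprofen photocaged arm at 18 h became 5 without DMSO 18 h replicate 3 and 0 without ibuprofen photocaged 18 h replicate 3. DESeq2 called 5 lower there, and 3 lower and 1 higher with photocaged ibufenac, where the median over the members was 0.03.

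In the ibufenac probe arm several members were lowest at 6 h and level with DMSO at 18 h. HSPA8 libraries read 1105, 1023 and 1083 CPM at 6 h, 1182, 1253 and 1240 at 12 h and 1546, 1521 and 1689 at 18 h, while the DMSO libraries declined, lying between 1708 and 1918 CPM at the first hour and between 1279 and 1469 CPM at the last. At 18 h all 3 ibufenac probe libraries lay above all 3 DMSO libraries, a change of 0.20 that did not pass (adjusted p = 0.102). DNAJA1 rose from 158, 157 and 147 CPM at 6 h to 236, 228 and 243 at 18 h, against 228, 241 and 198 in DMSO at 18 h.

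The change at 18 h minus that at 6 h was tested in each arm. In the ibufenac probe arm 8 members were higher by this difference (5.33% of all genes) and 1 was lower (2.65%), or 6 and 4 with length and GC trends removed. The largest were HSPA8, DNAJA1, DNAJB1 and HSPE1, and the lower one was DNAJA3. In the other arms 0 members passed edgeR's test: ibuprofen bolus (0%), ibufenac bolus (0.672%), ibuprofen photocaged (0.0568%), ibufenac photocaged (0.636%) and ibuprofen probe (0.0362%). At an unadjusted p under 0.05 these arms had 3, 20, 2, 9 and 6 members, and DESeq2 called 4 in the ibufenac bolus arm, 1 in the ibuprofen probe arm and 0 in the rest. Arms were not compared with each other in this difference. Over all arms and hours in 1 test with 12 degrees of freedom, 19 of 41 members had an arm effect that depended on time, against 22.8% of all genes.

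Ibufenac and ibuprofen were compared directly within each form and hour, 12 comparisons in all. Averaged over hours in the probe form, 3 members were lower with ibufenac (1.69% of all genes lower) and none higher: HSPE1 by −0.28 [−0.39, −0.16] (adjusted p = 0.00167), DNAJA1 by −0.25 [−0.34, −0.16] (adjusted p = 0.000466) and DNAJB6 by −0.12 [−0.18, −0.07] (adjusted p = 0.00955). The last call was lost with length and GC trends removed (−0.13, adjusted p = 0.0813). The split of 3 lower and 0 higher was 2 and 3 with length and GC trends removed and 3 and 1 with RLE size factors. For HSPA1B the difference was −0.05 [−0.35, 0.25] and for STIP1 −0.05 [−0.13, 0.03], which leaves room for either drug to be lower. In the photocaged form 0 members differed (0.0362%; 5 with an unadjusted p under 0.05; DESeq2 0), with HSPE1 at −0.01 [−0.12, 0.11], DNAJA1 at 0.03 [−0.06, 0.12] and HSPA8 at 0.09 [0.01, 0.16]. In the bolus form 0 differed on average (0%; 6 with an unadjusted p under 0.05; DESeq2 0).

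The drugs differed most at 6 h in the probe form, where 7 members were lower with ibufenac (10.7% of all genes lower) and 6 higher (12.9%), shares close to those of all genes. The lower ones were DNAJA1 (−0.59 [−0.75, −0.43], adjusted p = 9.61e-07), HSPA8 (−0.48 [−0.61, −0.34], adjusted p = 3.4e-06), HSPE1 (−0.45), DNAJB4 (−0.36), DNAJB1 (−0.33), CHORDC1 (−0.31) and HSPH1 (−0.27). The higher ones were HSPB1 (1.60 [0.86, 2.34], adjusted p = 0.000974), HSF1 (1.12 [0.73, 1.51], adjusted p = 3.71e-05), DNAJB2 (0.54), DNAJA3 (0.54 [0.36, 0.71], adjusted p = 1.84e-05), CDC37 (0.42) and TRAP1 (0.29).

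These 13 members also differed in base composition. GC content of the longest transcript was 33.1% for DNAJB4, 35.0% for CHORDC1, 40.0% for HSPH1, 41.7% for DNAJA1, 47.0% for HSPA8, 50.2% for HSPE1 and 53.0% for DNAJB1, the lower group. It was 52.0% for DNAJA3, 56.0% for TRAP1, 59.1% for DNAJB2, 60.0% for CDC37, 64.3% for HSPB1 and 64.7% for HSF1, the higher group. With length and GC trends removed from each library, DNAJA1 (−0.38, adjusted p = 0.000651), HSPA8 (−0.30, adjusted p = 0.000907), DNAJB1 (−0.31, adjusted p = 0.0103), DNAJA3 (0.58, adjusted p = 2.35e-06), HSPB1 (0.86, adjusted p = 0.0138) and HSF1 (0.26, adjusted p = 0.0202) still passed. HSPE1 (−0.28, adjusted p = 0.0859), DNAJB2 (0.18, adjusted p = 0.352), CDC37 (0.04, adjusted p = 0.868) and TRAP1 (0.15, adjusted p = 0.125) did not, nor did DNAJB4, CHORDC1 and HSPH1, and the split became 4 lower and 7 higher. The median over the members moved from −0.08 to 0.07.

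**Figure D4:**
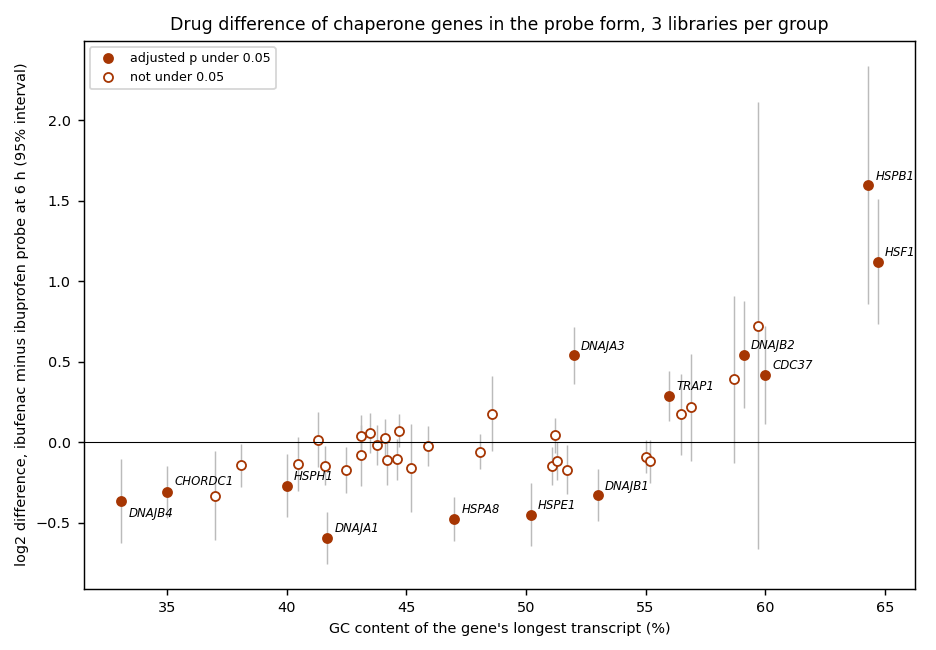
Log2 difference between ibufenac and ibuprofen in the probe arms at 6 h (vertical axis) against the GC content of each member's longest transcript in percent (horizontal axis); filled, named points have an edgeR adjusted p under 0.05. Members called lower lie between 33.1% and 53.0% GC and members called higher between 52.0% and 64.7%.

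DNAJA3 was the 1 member that rose against DMSO at 6 h. It read 133, 136 and 165 CPM with the ibufenac probe, 110, 119 and 117 in DMSO and 92.9, 90.6 and 115 with the ibuprofen probe. The ibufenac libraries lay above all others, and the change against DMSO was 0.33 [0.15, 0.50] (adjusted p = 0.00718), a call lost without ibufenac probe 6 h replicate 3. By 12 h ibufenac probe libraries read 97.8, 82.2 and 104, within or below the 104 to 109 of DMSO.

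At 12 h in the probe form 3 members were lower with ibufenac (1.06%) and 1 higher (0.858%). HSPA1A was lower by −2.42 (adjusted p = 0.0369), HSPA1B by −1.09 and DNAJA1 by −0.29 (adjusted p = 0.0417), and HSPA9 was higher by 0.23 (adjusted p = 0.0397). Fits that each left out 1 library called 0 to 7 members here, 0 without ibuprofen probe 12 h replicate 2 or ibufenac probe 12 h replicate 2. With the 2 HSP70 copies summed the difference was −1.10 (adjusted p = 0.0162). At 18 h 0 members differed between the probe arms (0% of all genes), with 6 at an unadjusted p under 0.05 and 0 by DESeq2. The interval was −0.07 [−0.26, 0.12] for HSPE1, 0.13 [−0.02, 0.29] for DNAJA1 and 0.19 [0.05, 0.32] for HSPA8. In the bolus form at 6 h 5 were lower with ibufenac (1.3%): HSPE1 (−0.42), HSPD1 (−0.30), CCT2 (−0.25), FKBP4 (−0.21) and CCT3 (−0.20), none of which passed with length and GC trends removed. That count was 0 without ibuprofen bolus 6 h replicate 1 or 2 or ibufenac bolus 6 h replicate 3, and 8 without ibufenac bolus 6 h replicate 1, ibufenac photocaged 6 h replicate 1 or ibuprofen bolus 12 h replicate 2. DESeq2 called 8 lower and 1 higher there, and without the filter on low counts 2 were lower and 3 higher. As bolus 0 differed at 12 h (0.0362%) and 18 h (0%), with 6 and 8 at an unadjusted p under 0.05. The photocaged form had 0 members called at 6, 12 and 18 h (0% at each), with 1, 0 and 7 at an unadjusted p under 0.05. DESeq2 called 0 in each of these last 5 comparisons.

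Probe and photocaged forms of one drug were also set against each other, without DMSO. With ibufenac, 16 of 41 members were lower in the probe arm (1.83% of all genes lower) and none higher. DNAJA1 differed by −0.40 [−0.50, −0.31] (adjusted p = 4.05e-08), HSPE1 by −0.36 [−0.48, −0.25] (adjusted p = 2.88e-05), HSPA8 by −0.29 [−0.37, −0.21] (adjusted p = 3.15e-06), HSPH1 by −0.24 (adjusted p = 0.00966) and STIP1 by −0.19 (adjusted p = 0.00372). HSPA1B, at −0.46 [−0.76, −0.16], did not pass (adjusted p = 0.078), and TRAP1 and DNAJA3 stood at 0.07 and 0.04. With length and GC trends removed the count was 9, as it was with only these 2 arms in the fit. With ibuprofen 0 of 41 passed (0.0982%; 13 with an unadjusted p under 0.05; DESeq2 1), and the nearest was FKBP4 at −0.14 [−0.20, −0.07] (adjusted p = 0.0844). Whether the form acted differently between the drugs was not tested.

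Other chaperone genes of the same compartments were read beside the members. Of 77 tested genes in lists of other cytosolic HSP70 and J-domain proteins, HSP90 co-chaperones, small heat shock proteins, mitochondrial chaperones and proteases, prefoldin and CCT cofactors and heat shock regulators, 7 fell and 0 rose in the ibuprofen probe arm (4.61% and 3.81% of all genes), and 10 fell and 3 rose in the ibufenac probe arm (7.31% and 5.87%). Their median changes were −0.05 and −0.03. GRPEL1, the nucleotide exchange factor of the mitochondrial HSP70, fell by 0.28 and 0.36 (adjusted p = 7.95e-05 and 1.14e-07). PPP5C, an HSP90-bound phosphatase, fell by 0.23 with the ibuprofen probe and CACYBP by 0.20 with the ibufenac probe. HSPB8, a small heat shock protein that works with BAG3, rose by 0.44 in the ibufenac probe arm (adjusted p = 0.00301) and by 0.45 in the ibufenac photocaged arm. In the photocaged arms 3 fell and 2 rose with ibuprofen (2.3% and 1.98% of all genes), and 2 fell and 3 rose with ibufenac (3.36% and 4.13%).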

How the data were processed

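RNA of 63 libraries was sequenced. Per the labels' protocols, total RNA was depleted of ribosomal RNA with Ribo-Zero and made into TruSeq stranded libraries. The authors deposited an estimated count and an FPKM value per gene and library, and 14.8% of the count values of 1 or more were not whole (tolerance 0.005). Which aligner, counting tool, strand setting and build they used is "not given in the sources used here". Estimated counts were rounded and tested with edgeR 4.0.16 in R 4.3.3: filterByExpr with a count minimum of 10, TMM factors, 21 group means, quasi-likelihood tests of 47 comparisons, and Benjamini-Hochberg adjustment over 19352 genes. Log2 changes are unshrunk, CPM levels have no prior count, and a prior count of 2 entered only the log2 CPM used for the length and GC trends and for the pairing check. FPKM values were used as deposited, to compare levels between genes in DMSO.

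The members and all lists were chosen with earlier results of these data known. Every member could be named, library values were given for the genes the results turn on, and other genes were named by the rule of up to 3 called per direction and arm. Alternatives were DESeq2 1.42.0, RLE size factors, no filter on low counts, a replicate block, removal of trends on gene length and GC content (splines with 4 degrees of freedom, GENCODE 29 names, longest transcript), 6 and 12 h only, only the arms compared, the HSPA1A and HSPA1B counts summed, DMSO 18 h replicate 3 and ibufenac bolus 18 h replicate 3 left out together, and each library left out. The fit was tested on simulated data of 19001 genes. At 1.25-fold, 48% of changed genes were found in the averaged ibufenac probe comparison and 14% at 6 h. Genes that had not been changed gave 4 false calls in the averaged ibufenac probe comparison and 9 at 6 h. The ibuprofen probe comparison, where no gene was changed, gave 0 calls.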

Additional observations from a re-analysis of the deposited data

Results flagged for a closer look

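The change against DMSO at 18 h minus the change at 6 h passed edgeR's test in the ibufenac probe arm for 9 members. It was positive for 8 of them, which were lower at 6 h than at 18 h relative to DMSO. HSPA8 differed by 0.94 (adjusted p = 1.21e-09), DNAJA1 by 0.96 (adjusted p = 2.99e-08), DNAJB1 by 0.87 (adjusted p = 3.18e-07) and HSPE1 by 0.75 (adjusted p = 0.00015). The difference was 0.51 for AHSA1 (adjusted p = 0.00107), 0.49 for HSPH1 (adjusted p = 0.0152), 0.45 for CHORDC1 (adjusted p = 0.00745) and 0.34 for FKBP4 (adjusted p = 0.00487). DNAJA3, the mitochondrial J-domain protein, went the other way with −0.53 (adjusted p = 0.00368). DMSO libraries at 6 and 18 h enter each of these differences, and over the same interval HSPA8 went from 1708 to 1918 CPM down to 1279 to 1469 CPM in DMSO.

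With length and GC trends removed, CHORDC1 (0.23, adjusted p = 0.143), AHSA1 (0.34, adjusted p = 0.121), HSPH1 (adjusted p = 0.0712) and FKBP4 (adjusted p = 0.0962) no longer passed. HSPH1 also did not pass without the 2 libraries left out together (0.43, adjusted p = 0.0501), nor FKBP4 without the filter on low counts (adjusted p = 0.0917).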

How the results depend on the processing

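No reported value changed sign where it was called. Without the filter on low counts the number of members called was 3 for the ibuprofen bolus, 2 for the ibufenac bolus, 1 for the drugs as bolus, 2 for ibuprofen probe against photocaged and 2 for DMSO 12 against 6 h, and for 18 minus 6 h it was 1 (ibuprofen bolus), 4 (ibufenac bolus), 1 (ibuprofen photocaged) and 2 (ibuprofen probe). With length and GC trends removed it was 15 for photocaged ibuprofen, 12 for photocaged ibufenac, 5 for the drugs as probe, 9 for ibufenac probe against photocaged, 13 for DMSO 12 against 6 h and 2 for DMSO 18 against 12 h. With 6 and 12 h only it was 4 for photocaged ibuprofen, 3 for the drugs as bolus and 5 as probe. Without the 2 libraries left out together it was 5 for the drugs as probe and 4 for DMSO 18 against 12 h. DESeq2 called 6 for the drugs as probe, 1 for ibuprofen probe against photocaged, and for 18 minus 6 h 4 (ibufenac bolus) and 1 (ibuprofen probe). With only the 2 arms in the fit it was 5 for the drugs as probe and 9 for ibufenac probe against photocaged. The cause was not tested.

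Leaving out each library gave 5 to 9 for photocaged ibuprofen, 5 to 8 for photocaged ibufenac, 15 to 23 for the ibuprofen probe, 19 to 23 for the ibufenac probe, 11 to 18 for ibufenac probe against photocaged and 17 to 23 for arm by time. It gave 3 to 5 for the drugs as probe (5 without ibuprofen probe 6 h replicate 3, ibufenac photocaged 6 h replicate 3 or ibufenac probe 12 h replicate 2), and 0 to 1 for ibuprofen probe against photocaged (1 without ibuprofen probe 6 h replicate 3). For 18 minus 6 h it gave 0 to 4 (ibufenac bolus), 0 to 1 (ibufenac photocaged), 0 to 1 (ibuprofen probe, 1 without ibufenac bolus 6 h replicate 2) and 9 to 12 (ibufenac probe). DMSO 12 against 6 h gave 0 to 6 (1 and 3 without DMSO 6 h replicates 1 and 3, and 2, 0 and 2 without DMSO 12 h replicates 1, 2 and 3). DMSO 18 against 12 h gave 4 to 14 (6 and 4 without DMSO 12 h replicates 2 and 3, and 5 and 4 without DMSO 18 h replicates 1 and 3). Both bolus arms, and the drugs as bolus and photocaged, stayed at 0.

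Samples of 1 replicate number were not shown to be paired: 3 of 189 pairs had deviations correlated above 0.1, and 28 libraries correlated best with their own number. With the replicate number as a block, 8 members were called for photocaged ibuprofen, 7 for photocaged ibufenac and 22 in each probe arm, 5 for DMSO 18 against 12 h and 1 for ibufenac bolus 18 minus 6 h.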

Other observations

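Chaperones of the endoplasmic reticulum, which lie outside the members apart from SERPINH1, rose in the photocaged and probe arms of ibufenac. Of 16 tested genes of an endoplasmic reticulum list, 11 rose with photocaged ibufenac and 8 with the ibufenac probe, 2 with photocaged ibuprofen and 1 with the ibuprofen probe (4.13%, 5.87%, 1.98% and 3.81% of all tested genes rose), and 0 fell in any of these arms. The medians were 0.17, 0.10, 0.07 and 0.03 in the same order. HSPA5 (BiP), the HSP70 of that compartment, rose by 0.39 [0.23, 0.55] with the ibufenac probe (adjusted p = 0.000294) and by 0.24 with photocaged ibufenac (adjusted p = 0.047), and stood at 0.03 and 0.09 with ibuprofen, where it did not pass. HSP90B1 (GRP94), its HSP90, rose by 0.17 with photocaged ibufenac (adjusted p = 0.0118) and stood at 0.11 with the ibufenac probe (adjusted p = 0.109). Between the probe arms, 4 of the 16 were higher with ibufenac (1.13% of all genes). Between the photocaged arms 0 of the 16 were higher (0.031%), with a median difference of 0.10. With the ibufenac bolus 0 of the 16 rose (0%) and 0 fell (0.0103%) against DMSO, with a median of −0.04.

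The small heat shock gene CRYAB is counted as risen in the ibufenac probe and ibuprofen photocaged arms, and no fold is given because it lay near 0 in DMSO. CRYAB was at 0 counts in 7 of 9 DMSO libraries. It had 1 to 26 counts (median 11) in the ibufenac probe libraries and 0 to 8 (median 3) in the ibuprofen photocaged libraries. The ibufenac photocaged libraries had 0 to 22. Only the 2 arms with up to 26 and 22 counts had a library above 8, so CRYAB passed the count filter through libraries where it was high. Its calls are therefore not read as support.

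HSF4, a heat shock factor of the lens, fell by 0.95 and 0.73 in the ibuprofen and ibufenac photocaged arms (adjusted p = 0.00594 and 0.0254) and by 0.66 in the ibuprofen probe arm (adjusted p = 0.0452). SPG7, a mitochondrial protease, fell by 0.27 and 0.38 in the photocaged arms and by 0.19 in the ibufenac probe arm (adjusted p = 0.00869).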
